A study of Canis lupus familiaris with 17 samples.

Results

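The genes described here are the proteasome genes of canine blood leukocytes, chosen as every gene of the count matrices whose symbol begins with PSMA, PSMB, PSMC, PSMD, PSME, PSMF or PSMG. The rule found 43 of 20257 genes, the same in all 17 matrices, and used no measured value. PSMA1, PSMB8, PSMB11, PSMC3, PSMC6, PSMD5 and PSMD6 were not among the genes found and were not analysed here, so the inducible catalytic subunits are represented by PSMB9 and PSMB10 without PSMB8. The prefix also takes in PSMC3IP and PSME3IP1, which encode interacting proteins and no subunit. PSMA8, a variant of an alpha subunit known from the testis, and PSMC3IP had 271 and 73 counts in all cells and are named only where a test called them or the naming rule took them. The other 41 genes had between 1536 (PSMG3) and 188941 counts (PSMB9).

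Leukocytes had been taken from the blood of 7 clinically healthy dogs and 10 dogs with osteosarcoma (OS), a malignant bone tumor, by density centrifugation and red cell lysis, and captured as single cells on a 10x Genomics instrument. All were client-owned dogs of wild-type genotype and of different breeds, and per the study's methods the dogs with OS had a primary tumor and had not been treated when blood was drawn, while the healthy dogs were observed for later disease. The disease had arisen spontaneously, and dogs of a group were no inbred strain. Each dog gave 1 library, so the dog was the replicate. Values were numbers of unique molecular identifiers (UMIs), which count single RNA molecules, per gene and cell. A matrix held between 7740230 and 56510134 UMIs, and 76459 cells remained after filters and the removal of platelet and red cell clusters. Cells were clustered without the proteasome genes, ribosomal protein genes and the pathway genes named below, and each cluster took its name from marker lists, so that a name means resemblance to that class. CD4 T cells and B cells were the T and B lineage clusters left once other names were given. A T lineage cluster of 3104 cells was left out of them, as its leading genes held more markers of another class. Counts were summed per dog and class and are given as CPM, the usual scaling of counts by the total UMIs of that sum. Because a UMI is read near the 3′ end of a transcript and some genes are annotated more fully than others, levels are compared between classes and not between genes.

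The proteasome degrades proteins that have been tagged with ubiquitin. Its barrel-shaped core particle is built from rings of alpha subunits (PSMA genes) and beta subunits (PSMB genes), of which PSMB5, PSMB6 and PSMB7 carry the constitutive catalytic sites. Interferon gamma induces PSMB8, PSMB9 and PSMB10, which replace them in newly built particles to form the immunoproteasome, an enzyme known for producing peptides for MHC class I and for its high content in lymphoid cells. A regulatory particle of ATPases (PSMC genes) and further subunits (PSMD genes) binds, unfolds and deubiquitinates substrates. The core can instead be capped by other activators: the interferon-inducible complex of PSME1 and PSME2, the nuclear activator PSME3 or the large activator PSME4. PSMF1 encodes an inhibitor of the core, and the PSMG genes, PSMD9 and PSMD10 encode assembly chaperones.

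The levels of some markers that named the classes describe those names and do not test them. Mean MS4A1, a B cell surface protein, was 262.7 CPM in B cells and at most 0.6 CPM in CD4 T cells, CD8/NK cells, monocytes and neutrophils. JCHAIN, the joining chain of antibodies, was at 2548 CPM in plasma cells against 32.3 in B cells, LYZ (lysozyme) at 20954 CPM in monocytes against 1953 in neutrophils, and S100A12, a calcium-binding protein of neutrophils, at 19624 CPM in neutrophils against 224 in monocytes. FLT3, a growth factor receptor of dendritic cells, was at 376 CPM in dendritic cells against 23.5 in monocytes. Several listed markers went against their label. CD79A, an antigen receptor component of B cells, had 8690 CPM in CD4 T cells against 6276 in B cells. FCGR1A of the monocyte list had 1081 CPM in neutrophils against 126 in monocytes. RAB7B of the dendritic cell list had 3.21 CPM in monocytes against 0.37 in dendritic cells. SLC9A9 of the CD4 T cell list had 1762 CPM in CD8/NK cells against 1626 in CD4 T cells. GZMK of the CD8/NK list had 448 CPM in double-negative T cells against 280 in CD8/NK cells. Libraries shared at most 22 cell barcodes (median 8 over 136 pairs). Clusters named mixed (1754 cells) or left unnamed (5106 cells) entered only the sums over all cells. The largest unnamed cluster (3104 cells) was led by genes including ITGA2, CCDC3 and RNF220, listed in the study for Th2-like CD4 T cells. Another (1498 cells) was led by IL18, IL1B and KCNJ2, listed there for monocytic myeloid-derived suppressor cells. Neither is part of the CD4 T cells or monocytes compared here.

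Before any comparison, 2 libraries stood apart in the ribosomal protein share of their CD4 T cells. In CD4 T cells, ribosomal protein genes took 10.6% of UMIs in healthy dog 2 and 14.3% in OS dog 3. The remaining 15 dogs ranged from 17.3 to 24.5%. In healthy dog 2, 21 of 43 genes lay below all of those 15 dogs and 10 lay above them. In OS dog 3 the numbers were 17 and 7. Such counts over all genes are not given here, so these do not set the proteasome genes apart from other genes. PSMB5, PSMB6, PSMB9, PSMB10 and PSME2 were below the other dogs in both, whereas PSMD14, the deubiquitinating subunit of the regulatory particle, PSME4 and PSMF1 were above them in both. All members together came to 2676 and 3037 CPM in these dogs and to between 3353 and 3868 CPM in the others. B cells and monocytes had a like split, with 21 and 23 genes below in B cells and 19 and 22 in monocytes. OS dog 3 also had the fewest barcodes (1332). The part of the ribosomal share or depth in these levels was not tested, and comparisons are given with and without both dogs where that changed the call of a member.

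**Figure D1:**
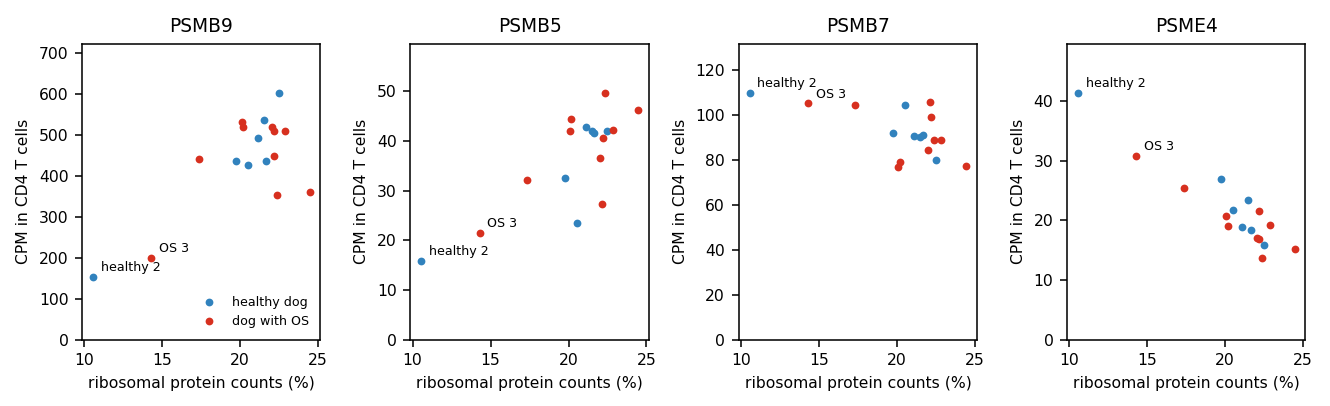
Level of 4 proteasome genes in the CD4 T cells of each dog (y axis, CPM, starting at 0) against the percentage of UMIs from ribosomal protein genes in the same cells (x axis), 1 point per dog, blue for healthy dogs and red for dogs with OS. Healthy dog 2 and OS dog 3 lie at 10.6 and 14.3% with low PSMB9 and PSMB5, high PSME4, and PSMB7 within or just above the range of the others.

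Over the 10 classes with sums in at least 10 dogs, 26 of 43 genes had their highest mean in plasma cells and 23 their lowest in neutrophils. The shares of all genes with their highest or lowest mean there are not given here. The median member was 3.30 times as high in its highest class as in its lowest. All members together were lowest in neutrophils at 2414 ± 215 CPM (SD, n = 17), rose through B cells at 3269 ± 388 (n = 17), monocytes at 3467 ± 428 (n = 17), CD8/NK cells at 3551 ± 327 (n = 17), CD4 T cells at 3598 ± 318 (n = 17), IFN signature monocytes at 3867 ± 261 (n = 11) and dendritic cells at 4427 ± 283 (n = 14), and were highest in plasma cells at 5151 ± 412 (n = 11). Double-negative T cells (3174 ± 316, n = 13) and eosinophils and basophils (3331 ± 661, n = 15) lay near B cells. From double-negative T cells to CD4 T cells, neighbors in this order differed by less than their SD. PSMB7 varied least among the catalytic genes, between 79.8 CPM in neutrophils and 104.0 in IFN signature monocytes. Of the 41 well-counted genes PSME2, an activator subunit, varied most, between 26.3 CPM in neutrophils and 480.3 in dendritic cells. PSMD14 and the chaperone PSMG4 also differed over 17-fold between their highest and lowest class.

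**Figure D2:**
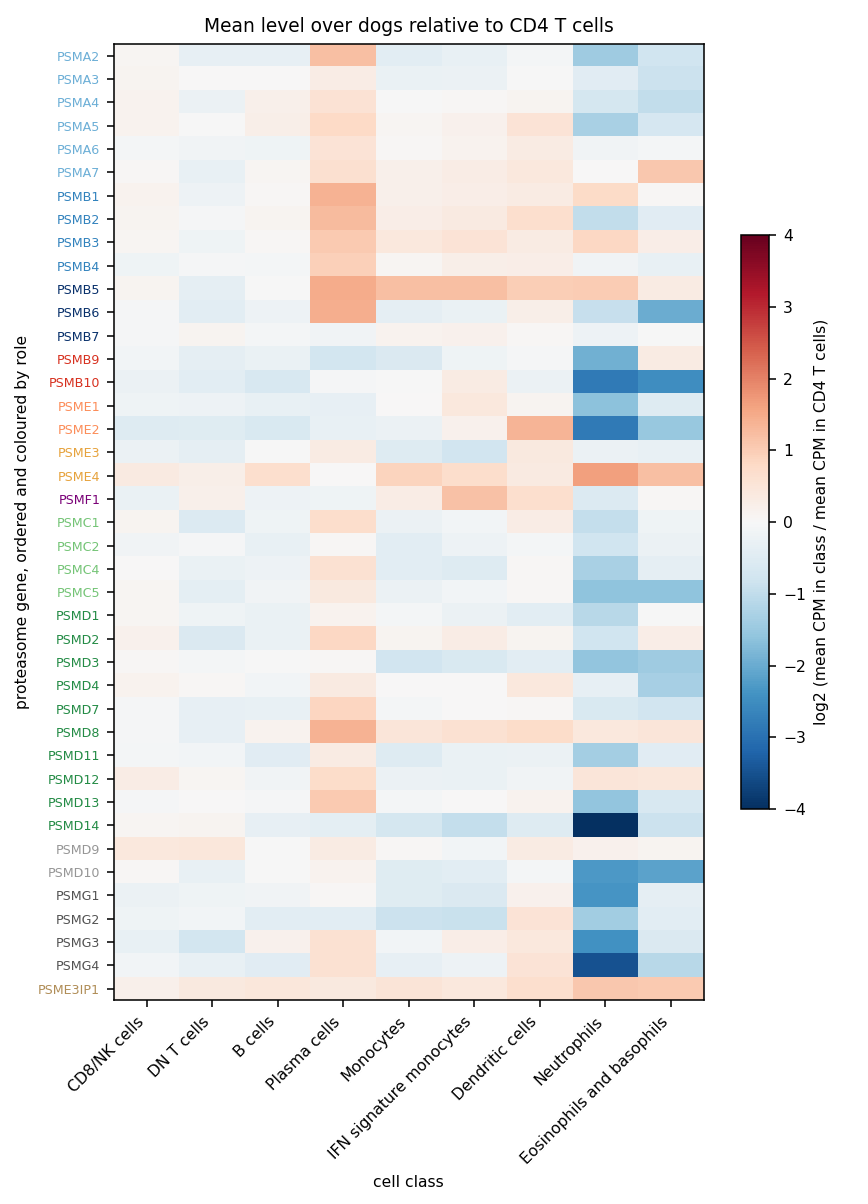
Mean CPM over dogs of 41 proteasome genes (rows, ordered and colored by role) in 9 cell classes (columns), as the log2 ratio to the mean in CD4 T cells, with red for higher and blue for lower. The plasma cell column is red for most rows, with PSMB9, PSME1, PSME2 and PSMD14 among the blue exceptions, and the neutrophil column is darkest blue at PSMB10, PSME2, PSMD14 and PSMG4.

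To compare the inducible with the constitutive genes in a dog, the summed CPM of PSMB9, PSMB10, PSME1 and PSME2 was divided by that of PSMB5, PSMB6 and PSMB7, and is given as a log2 ratio without a test. As it sets different genes against each other, only differences between classes can be read from it. Among named classes in at least 5 dogs, the highest means were those of gamma-delta T cells (2.27 ± 0.33, SD, n = 8), eosinophils and basophils (2.18 ± 0.67, n = 15), dendritic cells (2.13 ± 0.23, n = 14) and CD4 T cells (2.04 ± 0.22, n = 17). IFN signature monocytes (1.92 ± 0.19, n = 11), double-negative T cells (1.86 ± 0.36, n = 13), CD8/NK cells (1.85 ± 0.22, n = 17) and B cells (1.79 ± 0.28, n = 17) followed, and neighbors in this order differed by less than their SD. Monocytes were at 1.55 ± 0.23 (n = 17), plasma cells at 0.60 ± 0.17 (n = 11), neutrophils at 0.02 ± 0.83 (n = 17) and polymorphonuclear myeloid-derived suppressor cells (PMN-MDSCs), a class with enough cells only in 5 dogs with OS, at -0.35 ± 0.54. In eosinophils and basophils the median cell of a dog had only 696 to 2949 UMIs, so their ratio rests on low counts.

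Within dogs, the order was clearer. Neutrophils lay below the monocytes of the same dog by 1.54 ± 0.65 (SD of the differences) in 17 of 17 dogs, plasma cells below B cells by 1.25 ± 0.36 in 11 of 11, monocytes below CD4 T cells by 0.49 ± 0.17 in 17 of 17, and CD8/NK cells below CD4 T cells by 0.19 ± 0.07 in 17 of 17. B cells lay below CD4 T cells by 0.25 ± 0.13 in 16 of 17 dogs. Dendritic cells lay above monocytes by 0.55 ± 0.26 in 14 of 14 dogs and IFN signature monocytes above the other monocytes by 0.31 ± 0.12 in 11 of 11. Dendritic cells and CD4 T cells did not differ in a common direction, with the former higher in 8 of 14 dogs, and plasma cells were above neutrophils in 7 of 11. With PSMB9 and PSMB10 alone as the inducible genes, CD8/NK cells lay below CD4 T cells by 0.11 ± 0.10, in 14 of 17 dogs. On the same measure dendritic cells exceeded monocytes by 0.21 ± 0.36, in 10 of 14 dogs, and lay below CD4 T cells in 13 of 14. The spread among neutrophils was wide, from -1.64 in OS dog 3 to 1.15 in OS dog 2. The smallest neutrophil sum of a dog held 86751 UMIs and the fewest cells were 53, so ratios of such sums rest on few counts. The part of depth in this spread was not tested.

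**Figure D3:**
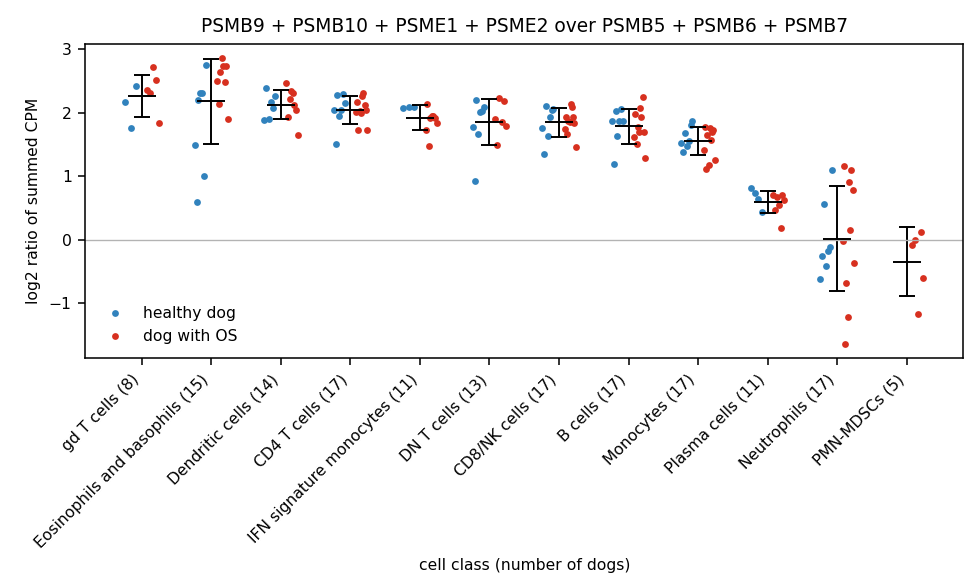
Log2 ratio of the summed CPM of PSMB9, PSMB10, PSME1 and PSME2 to that of PSMB5, PSMB6 and PSMB7 (y axis) in 12 cell classes (x axis, with the number of dogs), 1 point per dog, blue for healthy dogs and red for dogs with OS, with black bars for the mean and SD. The means of plasma cells, neutrophils and PMN-MDSCs lie below those of the other 9 classes, and blue and red points overlap in every class that holds both.

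Plasma cells, which secrete antibody, had more RNA of most core and regulatory particle genes than B cells of the same 11 dogs, and among the inducible genes PSMB10 passed both thresholds, though not with total counts as the scaling (log2 fold change 0.46). A gene counted as called when its adjusted p was below 0.01 and its log2 fold change exceeded 0.58 in size (edgeR quasi-likelihood test with the dog as a block). Of 43 members, 28 were called higher in plasma cells and 0 lower, where 18.4% of all 12160 genes tested were called higher and 25.7% lower. The members' median log2 fold change was 0.82 and that of all genes -0.22. By role, 6 of 7 alpha genes, 4 of 4 other beta genes, 2 of 3 constitutive catalytic genes, 4 of 4 ATPases and 9 of 10 further subunits of the regulatory particle were called higher. With total counts as the scaling these numbers were 2 of 7, 4 of 4, 2 of 3, 2 of 4 and 6 of 10, and 0 of 2 inducible catalytic genes were higher and 1 lower. In the main fit, 1 of 2 inducible catalytic genes and 0 of the PSME1 and PSME2 pair passed both thresholds. PSMF1, PSME3 and PSME4 did not pass them.

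PSMB6, the constitutive catalytic subunit that PSMB9 replaces, was between 217 and 323 CPM (median 289) in plasma cells and between 71.0 and 120.4 CPM (median 96.0) in B cells. The lowest plasma cell sum was above the highest B cell sum, and the log2 fold change was 1.90 ± 0.10 (SE, adjusted p = 9.2e-17). PSMB9 itself lay between 186 and 371 CPM (median 243) in plasma cells against 250.2 to 500.5 CPM (median 435) in B cells, was lower in 10 of 11 dogs, and had a log2 fold change of -0.23 ± 0.10 (adjusted p = 0.036), which was not called. PSMB5, the catalytic subunit that PSMB8 replaces, was between 77.3 and 148 CPM (median 106) in plasma cells and between 28.8 and 57.9 (median 40.4) in B cells, again without overlap (log2 fold change 1.62 ± 0.11, adjusted p = 3.8e-14). The third pair went the other way round. PSMB7, with a median of 87.8 CPM in plasma cells and 77.5 in B cells and overlapping ranges, had a log2 fold change of 0.36 ± 0.10 and was not called, while its inducible counterpart PSMB10, at 81.9 to 134 CPM (median 102) against 64.1 to 96.0 (median 74.5), was higher in 11 of 11 dogs (0.83 ± 0.09, adjusted p = 4.7e-09), a call that ended with total counts (0.46).

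The alpha subunit gene PSMA2 showed the largest change outside the catalytic genes, from a median of 68.6 CPM in B cells to 194 in plasma cells (log2 fold change 1.81 ± 0.10), with no overlap. PSMB1, PSMB2, PSMB3 and PSMB4, which complete the beta ring, had log2 fold changes of 1.59, 1.47, 1.32 and 1.35. Among the ATPases values lay between 0.66 (PSMC2) and 1.23 (PSMC1), and among the further subunits of the regulatory particle between 0.46 (PSMD14, not called) and 1.58 (PSMD8, which lies in the lid). PSMG4 was the one core chaperone called, at 1.30 ± 0.09. PSME1 (0.25 ± 0.09) and PSME2 (0.54 ± 0.11, adjusted p = 7.4e-05) did not reach the fold threshold. PSME2 passed it with DESeq2's size factors (0.59), among genes of at least 100 counts (0.61), with sums of at least 10 cells (0.58) and without OS dog 7 or 8 (up to 0.66). PSMD3 (0.62 ± 0.20) lost its call in 8 of 11 fits that each left out 1 dog, while PSME4 was at -0.11 ± 0.15. The size of these values, and the sign of some near 0, rests on scaling. With total counts in place of TMM factors, 17 members were called higher and 1, PSMB9 (-0.60), lower, while the members' median became 0.46 and that of all genes -0.57. Members with a positive log2 fold change went from 40 to 37 of 43.

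Of the ubiquitin and delivery genes, a list chosen with earlier results known, 4 of 11 were called higher in plasma cells and 0 lower, beside 18.4% and 25.7% of all genes. NPLOC4 (log2 fold change 2.76), VCP (1.70) and UFD1 (1.66), which together form the segregase that extracts ubiquitinated proteins from membranes, and the ubiquitin-activating enzyme UBA1 (0.97) were the 4. In the assembly list, chosen likewise, 4 of 13 were higher, 0 lower and 9 not called, among them the small regulatory subunit SEM1 (1.20) and NGLY1 (1.14), a glycanase that activates the transcription factor NFE2L1. Interferon signalling genes split, with 1 higher, IRF2 (0.93), and 3 lower out of 9, among them IRF8 (-4.20) and JAK1 (-1.46). Of 4 peptide handling genes, B2M, the light chain of MHC class I, was higher (0.93) and the peptide-trimming ERAP1 lower (-1.45). Median UMIs per cell were between 12532 and 17020 per dog in plasma cells and between 3194 and 5807 in B cells, and summed markers of cycling cells (8 genes) were between 194 and 619 CPM in plasma cells and between 15.6 and 36.2 CPM in B cells, without overlap. Among these markers MKI67, a protein of dividing cells, had a mean of 149 CPM against 1.12 CPM. The part of this depth or of cycling cells in the plasma cell values was not tested.

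**Figure D4:**
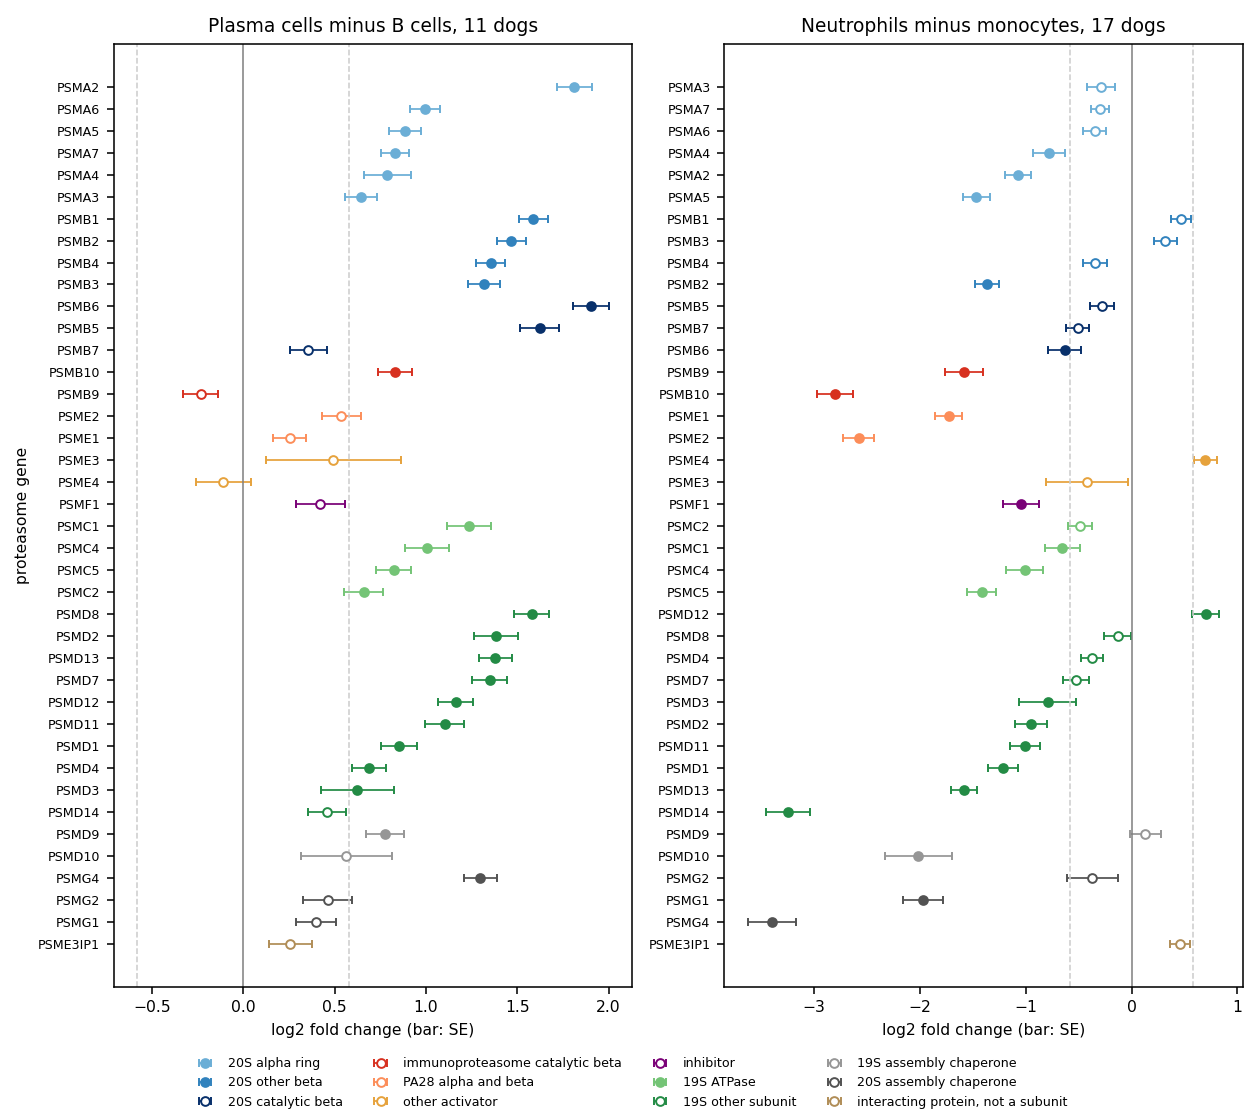
Log2 fold changes (x axis, points with SE bars) of proteasome genes (rows, grouped and colored by role, where 20S names the core particle and 19S the regulatory particle) in plasma cells over B cells (left) and neutrophils over monocytes (right). Filled points were called and open points were not, and dashed lines mark the fold threshold of 0.58. On the left the core and regulatory genes lie to the right of 0 with PSMB9 to its left, and on the right PSMB10, PSME2, PSMD14 and PSMG4 lie farthest to the left.

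Neutrophils had less RNA of the inducible genes and of most chaperones than monocytes, with smaller differences in the constitutive catalytic genes. Of 42 members tested, 23 were called lower and 2 higher, where 34.3% of all genes were called lower and 18.5% higher. The members' median was -0.72 and that of all genes -0.38, a shift that was -0.50 with DESeq2's size factors and -0.32 with total counts. All 4 inducible genes were called lower, against 1 of 3 constitutive catalytic genes. PSMG3, called lower, had 3 UMIs in all neutrophils and no fold change is given for it.

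PSMB10 was between 4.96 and 28.1 CPM (median 17.1) in neutrophils and between 47.0 and 149 (median 118) in monocytes. No neutrophil sum reached a monocyte sum, and the log2 fold change was -2.80 ± 0.17 (adjusted p = 8.5e-16). PSME2 had 0 to 46.8 CPM (median 24.8) against 101.5 to 209.7 (median 162), with a log2 fold change of -2.58 ± 0.14 and no overlap, and PSME1, its partner, 23.1 to 138.0 CPM (median 62.1) against 174 to 269.7 (median 220.7), with -1.73 ± 0.13. The ranges of PSMB9 overlapped, at 16.9 to 289 CPM (median 92.0) against 89.6 to 423 (median 309.8), though it was lower in 17 of 17 dogs (-1.58 ± 0.18, adjusted p = 2.1e-09). PSMB5 (-0.28 ± 0.11, adjusted p = 0.032) and PSMB7 (-0.51 ± 0.11) were not called, and PSMB6 was called at -0.63 ± 0.15 but fell short of the fold threshold with total counts (-0.55), among genes of at least 100 counts (-0.54) and without OS dog 9 or 10 (down to -0.56), and PSMB7 passed it with DESeq2's size factors (-0.61).

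The 2 lowest members were PSMG4 (log2 fold change -3.40 ± 0.23) and PSMD14 (-3.25 ± 0.21), at medians of 5.89 and 4.80 CPM in neutrophils against 77.1 and 48.4 in monocytes. Higher in neutrophils were PSME4 (0.70 ± 0.11), the activator linked to histone degradation, in 16 of 17 dogs and PSMD12 (0.70 ± 0.13), a lid subunit, in 15 of 17. Alpha subunits PSMA3, PSMA6 and PSMA7 (-0.29, -0.35 and -0.30) and beta subunits PSMB1 and PSMB3 (0.47 and 0.32) were not called. PSMF1 was lower (-1.05 ± 0.17). PSMD3, on 43 UMIs, was called at -0.79 ± 0.27 and lost its call in 13 of 17 fits that each left out 1 dog and also with total counts, among genes of at least 100 counts and without the 2 dogs that stood apart (-0.77, adjusted p = 0.015). The depth behind these values was small, with 129 UMIs of PSMB10, 240 of PSME2, 55 of PSMG4 and 42 of PSMD14 in all neutrophils. The median cell of a dog had 1386 to 2054 UMIs among neutrophils and 9056 to 15329 among monocytes, and a dog's median mitochondrial share was at most 0.158% in neutrophils and at least 1.92% in monocytes. Summed monocyte markers (12 genes) were between 2340 and 4584 CPM in neutrophils and between 22973 and 37982 CPM in monocytes. The part of RNA carried over from other cells, or of depth, was not tested.

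Counts of pathway genes in neutrophils stand beside the 34.3% of all genes called lower and 18.5% called higher. Of the peptide handling genes 4 of 4 were lower, led by TAP1, the peptide transporter (-2.35), B2M (-1.17) and ERAP1 (-0.86). Of 13 assembly and regulation genes 7 were lower, with SEM1 (-3.55), the deubiquitinase USP14 (-2.85) and NFE2L1 (-1.43) foremost, and 3 higher, AKIRIN2, which imports proteasomes into the nucleus (2.65), ZFAND5 (1.57) and the ubiquitin receptor ADRM1 (0.74). Ubiquitin and delivery genes were lower in 5 of 11, among them the ubiquitin-ribosomal fusion gene RPS27A (-3.63). Of the interferon signalling genes 1 of 9, IRF8 (-5.07), was lower.

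IFN signature monocytes, a cluster named by 14 interferon-response markers that held no proteasome gene, differed from the other monocytes of 11 dogs in few members. PSMF1, the inhibitor, was the 1 member of 42 called higher, and 0 were called lower, where 1.01% of all genes were called higher and 0.244% lower. It was between 60.3 and 130.4 CPM (median 76.5) in IFN signature monocytes and between 37.6 and 63.1 CPM (median 47.8) in the others, higher in 11 of 11 dogs with slightly overlapping ranges (log2 fold change 0.77 ± 0.07, adjusted p = 4.4e-16). The 4 inducible genes were higher in 11 of 11 dogs at less than the fold threshold, and so were not called: PSME2 by 0.33 ± 0.05, PSME1 by 0.32 ± 0.05, PSMB9 by 0.22 ± 0.04 and PSMB10 by 0.21 ± 0.05, with adjusted p between 2.0e-07 and 0.0029. PSMB9 went from 209 to 423 CPM (median 352) in other monocytes to 286 to 510.3 CPM (median 403). PSMB5, PSMB6 and PSMB7 were at -0.09 ± 0.06, -0.03 ± 0.06 and -0.01 ± 0.06. In this edgeR test 6 of 42 members had an unadjusted p under 0.05, beside 2431 of all 13526 genes (18%).

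In the same cells, 2 of 9 interferon signalling genes were called, both higher, among them the signal transducer STAT2 (0.93). None of the 4 peptide handling genes was called, though TAPBP (0.48), ERAP1 (0.42) and TAP1 (0.34) had adjusted p of 1.6e-14, 1.1e-05 and 3.0e-11. Summed interferon markers were 2264 CPM in the cluster and 443 CPM in monocytes, whereas summed neutrophil markers were 5338 and 5296 CPM and summed T cell markers 12.0 and 10.5 CPM. Without correction across dogs before clustering, no such cluster was found.

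**Figure D5:**
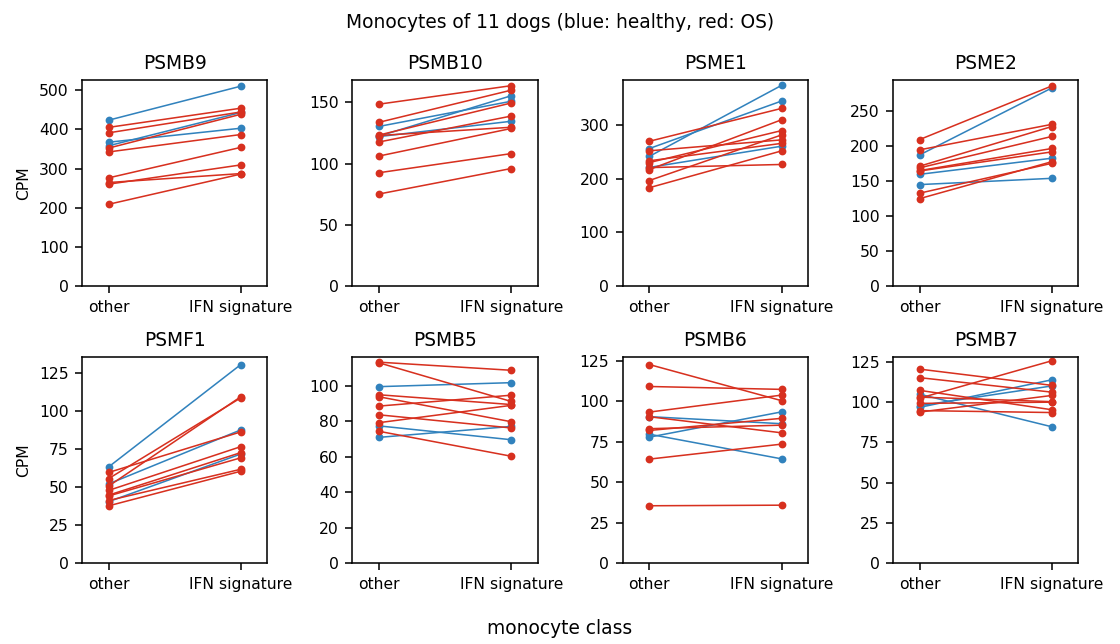
CPM of 8 proteasome genes (y axes, each starting at 0) in the other monocytes and in IFN signature monocytes (x axis), 1 line per dog over 11 dogs, blue for healthy dogs and red for dogs with OS. Every line rises for PSMB9, PSMB10, PSME1, PSME2 and PSMF1, while lines of PSMB5, PSMB6 and PSMB7 go both ways.

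Monocytes and CD4 T cells differed in single members. Of 43, 5 were called higher in monocytes and 2 lower, where 24.5% and 27.1% of all genes were called, and under total counts, which shift the median of all genes from -0.11 to -0.31, the split was 2 higher and 5 lower. PSMB5 stood out, with 44.5 to 113 CPM (median 83.5) in monocytes and 15.9 to 49.6 CPM (median 41.6) in CD4 T cells, higher in 17 of 17 dogs (log2 fold change 1.42 ± 0.07, adjusted p = 2.2e-15). The other constitutive catalytic genes were not called, PSMB6 at -0.18 ± 0.10 (adjusted p = 0.099) and PSMB7 at 0.36 ± 0.05 (adjusted p = 1.1e-06), higher but short of the fold threshold. PSME4 (1.04 ± 0.09), PSME3IP1 (0.71 ± 0.06), PSMD8 (0.69 ± 0.06) and PSMB3 (0.63 ± 0.08) were also higher, of which PSME4 kept its call with total counts and the other 3 did not. PSMB9 was lower in 17 of 17 dogs by less than the threshold (-0.41 ± 0.05), which total counts put past it (-0.62). PSMB10 (0.17 ± 0.06), PSME1 (0.23 ± 0.06) and PSME2 (-0.02 ± 0.05) were near the level of CD4 T cells. Called lower were the core chaperone PSMG2 (-0.63 ± 0.10), at -0.57 and not called without OS dog 2 and also without the 2 dogs that stood apart, and PSMA8, with 15 UMIs in monocytes and 96 in CD4 T cells. Without the 2 dogs that stood apart, PSMF1 (0.53 ± 0.08 in all dogs) passed the threshold at 0.59, so that 6 members were higher and 1 lower. The pathway lists also split, with NFE2L2, a transcription factor of oxidative stress that also acts on proteasome genes, higher (5.21), as were ZFAND5 (2.45) and IRF8 (5.83), and USP14 (-1.32) and NLRC5, the transactivator of MHC class I genes (-1.38), lower.

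Dendritic cells were set apart from monocytes by PSME2. It lay between 280.8 and 582 CPM (median 480.1) in dendritic cells and between 125 and 209.7 CPM (median 163) in the monocytes of the same 14 dogs, without overlap (log2 fold change 1.32 ± 0.07, adjusted p = 1.8e-14). PSME1, with which it forms a complex, was at -0.15 ± 0.05 with an adjusted p of 0.019 and was not called. The chaperones PSMG2 (1.13 ± 0.08) and PSMG4 (0.59 ± 0.07) and the activator PSME3 (0.85 ± 0.23) were called higher and PSME4 lower (-0.58 ± 0.11), so 4 of 42 members were higher and 1 lower, where 15.6% and 18.3% of all genes were called. PSME4 lost its call with DESeq2's size factors and with total counts, which leave 4 higher and 0 lower and move the median of all genes from -0.10 to 0.02 and 0.11, and also with no filter beyond 1 count (-0.55) and among genes of at least 100 counts (-0.49). PSMB9 (0.18 ± 0.06) and PSMB6 (0.23 ± 0.07) were slightly higher and PSMB10 (-0.55 ± 0.08), PSMB5 (-0.51 ± 0.08) and PSMB7 (-0.33 ± 0.07) lower, none of them called, although PSMB10 passed when cells were clustered without correction across dogs (-0.61) and without OS dog 1 or 7 (to -0.59). Single dogs decided 3 of the calls. PSME3, at few CPM, was not called without healthy dog 6 (0.76), PSMG4 was not called without healthy dog 5 or 7 or OS dog 4, 7 or 8 (as low as 0.56), and PSME4 without healthy dog 1, 4 or 6 or OS dog 4, 7 or 10 (-0.53 nearest to 0), so that without healthy dog 6 or OS dog 4 only 3 members were called. Summed monocyte markers (12 genes) came to 3427 to 10449 CPM in dendritic cells (mean 6304), beside summed dendritic cell markers (23 genes) of 3687 to 6172 CPM (mean 5281), which were at a mean of 492 CPM in monocytes. The part of monocyte RNA in these values was not tested. Of the pathway genes, IRF8, which dendritic cells need to develop, was higher (2.84) and NFE2L2 (-1.74), NLRC5 (-1.69) and IRF2 (-1.49) were lower.

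Among lymphocytes differences were small. In B cells against CD4 T cells 1 member was called higher and 3 lower of 43, where 15.6% and 15.9% of all genes were called, and with other scalings the split was 2 and 2. Leaving out 1 dog at a time gave 3 to 6 members called, and without the 2 dogs that stood apart 2 were higher and 4 lower, as PSME4 (0.59) and PSMG4 (-0.59), both just short of the threshold in all dogs, passed it. The lower genes were PSMB10, at 36.4 to 96.0 CPM (median 73.3) against 48.6 to 144 CPM (median 112) and lower in 17 of 17 dogs (log2 fold change -0.77 ± 0.06), PSME2 (-0.73 ± 0.06) and PSMD11 (-0.59 ± 0.06), which fell short of the threshold with both other scalings, among genes of at least 100 counts (-0.55) and without OS dog 4 or 10 (-0.58). The higher one was PSMA8 (1.55 ± 0.32), on 72 UMIs in B cells. PSME1 (-0.43 ± 0.04) and PSMB9 (-0.41 ± 0.04) were also lower in 17 of 17 dogs without being called, beside PSMB6 (-0.33 ± 0.07), PSMB7 (-0.20 ± 0.04) and PSMB5 (-0.16 ± 0.07). Pathway genes lower in B cells included NLRC5 (-2.60) and B2M (-1.27), and IRF8, a B cell factor, was higher (7.93).

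In CD8/NK cells against CD4 T cells, 0 of 43 members were called in either direction by edgeR, where 7.88% of all genes were higher and 7.60% lower, and 26 members had an unadjusted p under 0.05, as had 7503 of all 14993 genes. PSME2 was the nearest, at 77.4 to 165 CPM (median 129.6) against 105.5 to 242 CPM (median 188.8), lower in 17 of 17 dogs (-0.57 ± 0.04, adjusted p = 4.6e-11), and passed the fold threshold when cells were clustered without correction across dogs (-0.62) and without healthy dog 5 or OS dog 2 or 5 (to -0.59), which makes it the 1 member called there. PSMB10 (-0.30 ± 0.03), PSME1 (-0.24 ± 0.03) and PSMB9 (-0.16 ± 0.03) were lower as well, and PSMB5, PSMB6 and PSMB7 were between -0.10 and 0.05.

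Dogs with OS were compared with healthy dogs in all cells and in 6 classes. In none of these 7 comparisons did edgeR call a member, and it called 0 genes in all (percent called 0). More members had positive than negative log2 fold changes in 6 of the 7, with 35 of 43 in all cells, 36 of 43 in CD4 T cells, 37 of 43 in CD8/NK cells, 27 of 42 in B cells, 36 of 42 in monocytes, 26 of 40 in neutrophils and 20 of 41 in plasma cells. The members' median was 0.12 in all cells and between -0.01 and 0.14 in the classes, beside medians of all genes between -0.01 and 0.02. With total counts 30 of 43 were positive in all cells, with a median of 0.07 beside -0.07. These values were not tested as a list. Healthy dog 2 lay below the dogs that did not stand apart in 21 of 43 members in CD4 T cells. The numbers of positive members in fits without this dog are not given here. Leaving out 1 dog at a time put PSMB5 in CD4 T cells between 0.06 and 0.28 and PSMB9 between -0.14 and 0.14. The share of all genes with a positive value is not given here. In all cells, 923 of 16262 genes and 1 of 43 members had an unadjusted p under 0.05, and in the classes between 320 and 806 genes and 1 or 2 members did. DESeq2 called 3 genes in all cells, 2 in monocytes and 3 in plasma cells, none of them a member. A 3-fold change put into simulated counts was found in 96.3% of genes with a mean of at least 50 counts in the comparison of CD4 T cells and in 95.7% in that of monocytes. Smaller changes may have been missed there, and the other 5 comparisons were not simulated.

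The member with the smallest p in all cells was PSMA4, an alpha subunit, with 23.3 to 42.5 CPM (median 32.0) in dogs with OS and 20.9 to 32.2 CPM (median 26.1) in healthy dogs. The ranges overlapped, and the log2 fold change was 0.37 ± 0.13 (unadjusted p = 0.010, adjusted p = 0.72). It was at 0.34 ± 0.14 in CD4 T cells, 0.40 ± 0.15 in CD8/NK cells, 0.41 ± 0.17 in B cells, 0.41 ± 0.14 in monocytes, 0.43 ± 0.35 in neutrophils and -0.04 ± 0.22 in plasma cells, with adjusted p between 0.80 and 1.0. These classes come from the same dogs and are not independent. For PSMA4, OS dog 3 lay above all dogs that did not stand apart in CD4 T cells, CD8/NK cells and B cells. Healthy dog 2 lay below them in CD8/NK cells. Values of PSMA4 without these dogs are not given here. In all cells PSMD3 (0.26 ± 0.17) came next among members higher in dogs with OS, and PSMA8 (-0.56 ± 0.32) and PSME4 (-0.12 ± 0.15) had the smallest p among the lower ones. In monocytes PSME3 was at 0.54 ± 0.22 (adjusted p = 0.81) on 1.51 to 4.72 CPM. In neutrophils PSMG4 was at 1.19 ± 0.56 (unadjusted p = 0.042, adjusted p = 1.0), with some sums of either group at 0.

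For the inducible and constitutive genes the groups overlapped throughout. PSMB9 in all cells was between 158 and 469 CPM (median 396) in dogs with OS and between 127 and 511 CPM (median 405) in healthy dogs (-0.01 ± 0.26). PSMB10 was at 0.24 ± 0.20, PSME1 at 0.18 ± 0.13, PSME2 at 0.16 ± 0.17, PSMB5 at 0.32 ± 0.23, PSMB6 at 0.22 ± 0.21 and PSMB7 at 0.07 ± 0.09, each with an adjusted p of at least 0.88. In monocytes PSMB9 was at -0.03 ± 0.27 and in CD4 T cells at 0.03 ± 0.25. The lowest p for PSMB9 was in plasma cells, where 7 dogs with OS had 186 to 352 CPM (median 232) and 4 healthy dogs 222 to 371 CPM (median 321), with a log2 fold change of -0.38 ± 0.17 (unadjusted p = 0.041, adjusted p = 1.0). Mean log2 ratios of inducible to constitutive genes differed between the groups by -0.10 to 0.02 over the 7 comparisons, less than 1 SD in each. Leaving out 1 dog at a time put the difference in neutrophils between -0.12 and 0.19. With PSMB9 and PSMB10 alone as the inducible genes, plasma cells were at -0.15 ± 0.21 in 4 healthy dogs and -0.41 ± 0.25 in 7 dogs with OS. IFN signature monocytes, outside the 7 comparisons, were at 2.09 ± 0.01 in 3 healthy dogs and 1.86 ± 0.19 in 8 dogs with OS. Whether the difference between monocytes and CD4 T cells itself depended on the group was tested as an interaction, and 0 members were called, with PSMB5 at 0.05 ± 0.14 and PSMB9 at -0.05 ± 0.11. Of all 15284 genes, 687 had an unadjusted p under 0.05 in this test and 0 were called.

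Among themselves, members covaried across the CD4 T cells of 17 dogs, and most of the pairs given were less correlated without the 2 dogs that stood apart. Correlations of log2(CPM + 1) were computed for 8 pairs, of which 7 are given, with p from 100000 permutations and Benjamini-Hochberg adjustment over the 8. PSMB5 and PSMB6 gave Pearson's r = 0.82 (permutation p = 0.00043, adjusted p = 0.0034) and Spearman's rho = 0.66 (permutation p = 0.0048, adjusted p = 0.038), and r = 0.43 without healthy dog 2 and OS dog 3. PSMB9 and PSMB10 gave r = 0.76 (permutation p = 0.0038, adjusted p = 0.010) and rho = 0.33 (permutation p = 0.19, adjusted p = 0.31), and r = -0.20 without these dogs, so the relation rests on them. PSMB9 with PSMB5, PSME2, TAP1 and ISG15, an interferon-induced modifier, had r between 0.61 and 0.80 and rho between 0.24 and 0.36, and without the same dogs r between -0.35 and -0.05. PSME1 and PSME2, which form a complex, gave r = 0.49 (permutation p = 0.041, adjusted p = 0.047) and rho = 0.56 (permutation p = 0.021, adjusted p = 0.084), with r = 0.49 also without healthy dog 2 and OS dog 3 (permutation p = 0.063) and r = 0.38 without healthy dogs 2 and 4, the farthest from the median of PSME1.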

How the data were processed

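The authors deposited, for each dog, a matrix of UMI counts per gene and cell, made per the labels and methods with Cell Ranger 7.0.0 on the CanFam3.1 genome and an Ensembl annotation filtered by biotype. Whether intronic reads are in these counts is not given in the sources used here, and the authors' cell annotation was not used.

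Cells with over 200 and under 4500 genes, over 500 and under 20000 UMIs and under 10% mitochondrial UMIs were kept (84345 cells). The 3938 cells with the highest Scrublet doublet scores in their library were then removed, a number preset from its barcodes and cells kept. With 162 genes held out, 2000 variable genes gave 30 components, which were corrected across dogs with a clustering-based linear method (50 clusters) and clustered by the Leiden method (20 neighbors, resolution 1, applied again within main classes). Clusters that scored highest for platelet markers (3304 cells) or red cell markers (610 and 34 cells) were removed. Clusters were named from marker lists with 3 or more markers detected, under limits chosen once the clusters were known. A mean log2 fold over other clusters of at least 2 named plasma cells, neutrophils, PMN-MDSCs and eosinophils and basophils. It also named cycling, gamma-delta and double-negative T cells. The limit was 1.5 for the IFN signature and 1 for dendritic cells. CD8/NK cells needed the fold of 2 or CD8A of at least 50 CPM. Monocytes needed a positive mean fold for their markers, above that for neutrophil markers. CD4 T cells and B cells were the clusters of their lineage that met no other rule. A name was withdrawn where a cluster's leading genes held more markers of another class. This left unnamed a cluster of 3104 cells that would have been CD4 T cells. MX1, GP1BA, TREML1, CAVIN2 and MMRN1 had no value among the markers, and POMP, DDI2, IRF9, IFNGR2, TAP2 and UBQLN2 were among those without one in the pathway lists. Values of some genes on these lists, and 1 correlated pair, are not reported here.

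Counts were summed per dog and class with at least 25 cells and compared by the quasi-likelihood test of edgeR (TMM factors, genes with at least 10 counts). Class comparisons had the dog as a block, and OS was compared with healthy dogs where each group had at least 4. A call needed a Benjamini-Hochberg adjusted p below 0.01 over all genes tested and an absolute log2 fold change over 0.58, and the SE was taken from the fold change and its F statistic. CPM used total UMIs without TMM factors, so CPM ratios and fitted fold changes can differ. DESeq2 was an alternative. Fits that left out 1 dog kept the dispersion trend of the full fit. Interferon signature CD4 T cells formed no cluster, cycling T cells had enough cells in 1 dog, and no promoter sequence was used. Dogs' ages, from the study's table of dogs, served as a covariate in an alternative.

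Steps were tested on simulated data. With 200 genes changed 3-fold, monocytes against CD4 T cells (15284 genes) recovered 75.5% of them, OS against healthy CD4 T cells (14341 genes) 65.5% and monocytes (13789 genes) 68.5%, with 1, 1 and 2 unchanged genes called. A library had 1332 to 7748 barcodes. Small counts set the precision of low members.

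The members and gene lists were chosen with earlier results of these data known. Genes were named by a fixed rule: the inducible and constitutive genes in each comparison, the 3 called members with the largest fold change in each direction, and for OS the 2 members with the smallest p in each direction. Other members are named in describing a role, and were chosen after their values were seen. Replicate numbers did not pair dogs, as correlations of deviations between same-numbered dogs of the groups ran from -0.29 to 0.22 over 7 pairs. Python 3.11.15, scanpy 1.11.5, leidenalg 0.10.2, scipy 1.17.1, R 4.3.3, edgeR 4.0.16 and DESeq2 1.42.0 were used.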

Additional observations from a re-analysis of the deposited data

Results flagged for a closer look

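The 120 sets of CPM values, each of 1 gene in 1 class and group of 4 to 10 dogs, share dogs and are not independent. For independent sets chance would give about 1 in 20, so this share is no measure of an excess here. Of the 120 sets, 12 (10%) had a highest or lowest dog set apart from the others by Dixon's criterion. Healthy dog 2, which stood apart by its ribosomal share, gave 5 of them, all low: PSMB6 in CD4 T cells at 44.96 CPM (nearest healthy dog 84.2), PSMB9 in CD4 T cells at 153.9 CPM (427), PSMB6 in CD8/NK cells at 44.43 CPM (88.7), PSMB9 in B cells at 128.3 CPM (344) and PSMB10 in B cells at 36.45 CPM (62.0). OS dog 3, the other such dog, was low for PSMB10 in B cells at 39.87 CPM (67.7) and high for PSMB6 in neutrophils at 92.22 CPM (59.1). In dendritic cells, OS dog 1 was low for PSMB6 at 79.63 CPM (116) and PSME2 at 280.8 CPM (459), and healthy dog 1 was high for PSMB7 at 126.1 CPM (94.0). PSMB9 in plasma cells was high in OS dog 9 at 352.4 CPM (253), and PSMB6 in IFN signature monocytes was low in OS dog 2 at 35.8 CPM (73.5).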

How the results depend on the processing

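The 5 members called in neutrophils on the fewest counts rest on 3 to 55 UMIs in all. With total counts, 18 members were called in plasma cells against B cells, and without correction across dogs 1 was called in CD8/NK cells against CD4 T cells. With DESeq2's size factors the members called in neutrophils were 2 higher and 26 lower, and with total counts 2 and 21. With the catalytic genes alone, the within-dog difference in log2 ratio was -0.11 for CD8/NK minus CD4 T cells, -0.68 for monocytes minus CD4 T cells and 0.21 for dendritic cells minus monocytes, and with a mean of log values the first was -0.27. Without the 2 dogs of low ribosomal share, a choice made after seeing the data, r was -0.20 for PSMB9 and PSMB10, 0.49 for PSME1 and PSME2, -0.35 for PSMB9 and PSME2, -0.050 for PSMB9 and PSMB5, 0.43 for PSMB5 and PSMB6, -0.081 for PSMB9 and TAP1 and -0.090 for PSMB9 and ISG15. The cause of these changes was not tested. Leaving out each dog in turn gave 0 to 1 members called for CD8/NK cells, 3 to 6 for dendritic cells and 3 to 6 for B cells, and r from 0.45 to 0.85 (PSMB9 and PSMB10), 0.38 to 0.61 (PSME1 and PSME2), 0.28 to 0.77 (PSMB9 and PSME2), 0.46 to 0.79 (PSMB9 and PSMB5) and 0.41 to 0.69 (PSMB9 and ISG15). Values not called changed sign in 171 fits over 30 values. With the replicate number as a block, 0 members were called in each of the 7 comparisons of OS with healthy dogs, as without the block, while all genes called went from 0 to 11 in neutrophils and to 6 in plasma cells. With age as a covariate 0 members were called. The comparison of IFN signature monocytes between groups (3 healthy dogs), cycling T cells, IFN signature CD4 T cells and a PSMB8 term gave no fitted value, nor did plasma cells of OS against healthy dogs without 1 healthy dog.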

Other observations

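The following classes entered no test, and their values are given as a description. IFN signature neutrophils, with enough cells in 4 dogs (1 healthy, 3 with OS), had PSMB9 at 354 ± 159 CPM (SD, n = 4) where neutrophils were at 117 ± 83.7 (n = 17), and their log2 ratio of inducible to constitutive genes was 1.85 ± 0.34, above the neutrophils of the same dog in 4 of 4 by 1.02 ± 0.35. Eosinophils and basophils had the highest mean of PSMB9 among 10 classes, 550 ± 240.0 CPM (n = 15, from 78.8 to 950.4), and PSMB10 at 19.6 ± 15.8 CPM and PSMB6 at 25.2 ± 14.4 CPM. Their log2 ratio was 1.81 ± 0.79 in healthy dogs and 2.50 ± 0.33 in dogs with OS, with healthy dog 2 the lowest at 0.60, and the difference was not tested. A dog's sum held as few as 36 of these cells, and the median cell of a dog had 696 to 2949 UMIs. Ratios of such sums rest on few counts. PMN-MDSCs, in 5 dogs with OS, had PSMB9 at 55.9 ± 32.1 CPM and PSMB5 at 115 ± 19.2 CPM. Gamma-delta T cells in 8 dogs had PSMB9 at 454 ± 125 CPM and PSMB10 at 108 ± 28.0 CPM. Cycling T cells, 25 cells of 1 healthy dog, had all members together at 7282 CPM, above the 5797 CPM of the highest plasma cell sum.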
